A study of Homo sapiens with 4 samples.

Results

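Estrogen drives luminal breast cancer cells through estrogen receptor alpha, a transcription factor that binds DNA when it holds hormone and switches on a well-known set of genes. The 38 genes described here are such targets outside the trefoil peptide family. A gene belonged if its symbol in the deposited tables was on a list of known receptor targets. That list was chosen with earlier results of these data known, so its counts are a description and not independent evidence. All 38 were found among the 23605 symbols of the tables. Such targets can serve as a gauge of receptor output, but receptor output itself was not tested in these data. GREB1 and PGR act beside the receptor on chromatin, and PDZK1 and SLC9A3R1 hold membrane proteins in place. RET and GFRA1 pass on growth factor signals, and others are kinases, transporters, proteases and chaperones.

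RNA was sequenced from LCC9 cells, a descendant of the MCF-7 breast cancer line that the labels call tamoxifen-resistant and expressing the wild-type form of estrogen receptor alpha. The compared groups were LCC9 cells given the compound A7 for 24 h (2 libraries) and LCC9 cells given vehicle, DMSO, for 24 h (2 libraries). A7 is described in the labels as a mimetic of the tumour suppressor BRCA1, its dose is not given in the sources used here, and the catalogue numbers in the titles differ, so only the code name is used. The medium of both groups was free of phenol red and held 5% serum stripped with charcoal, which leaves little estrogen. LCC9 is a single cell line, and separate cultures are not named in the labels for the 2 libraries of a group, so each p-value reflects the spread among these libraries alone, which may be technical. The labels name no time point other than 24 h and no group with added estrogen or with an antiestrogen.

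The values are FPKM, fragments corrected for transcript length and library size, divided here by a factor per library (scaled FPKM). Of the 38 members, 28 had a mean FPKM of 1 or more and were tested with limma on log2(scaled FPKM + 1), as were 8952 genes in all. The libraries were shallow, at an estimated 4500000 and 3500000 fragments with A7 and 2400000 and 2300000 with vehicle. All 7 luminal markers had an FPKM of 1 or more in every library. The 4 leukocyte markers and the basal keratins KRT5 and KRT14 were listed at 0 in every library. Of the other basal or myoepithelial markers, ACTA2 stood at 11.1 and 11.3 scaled FPKM with A7 and at 13.7 and 14.6 with vehicle. TP63 and MYLK had a mean FPKM of 0.943 and 0.904. The summed scaled FPKM of the luminal markers was 992 and 751 with A7 and 1131 and 900 with vehicle. The fibroblast marker DCN had 8.40 and 0.230 scaled FPKM with A7 and was listed at 0 with vehicle in each library, while the other 4 fibroblast markers summed to under 2 in each library. Without A7 replicate 1, the library with the DCN value of 8.40, the mean with A7 was lower for 21 of the 28 tested members (50.9% of all tested genes) and their median log2 difference was -0.31.

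Sequences are shown for a gene pair whose reads are hard to assign and for promoters that hold letters of the receptor's binding element. PDZK1 and its pseudogene PDZK1P1, both on chromosome 1, are so alike that a short read may fit both. Over 1347 bases of the PDZK1 coding sequence (86.5% of it) the GENCODE 29 transcript of the pseudogene was 99.6% identical, with 5 differing bases. The stretch of 150 bases with the most differences, from coding base 325 to 474 counted from the start codon, is printed 5′ to 3′ with the 3 differing positions in capitals.
PDZK1: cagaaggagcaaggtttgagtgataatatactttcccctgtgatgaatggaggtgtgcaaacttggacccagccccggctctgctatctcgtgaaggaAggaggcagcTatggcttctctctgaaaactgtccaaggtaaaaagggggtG
PDZK1P1: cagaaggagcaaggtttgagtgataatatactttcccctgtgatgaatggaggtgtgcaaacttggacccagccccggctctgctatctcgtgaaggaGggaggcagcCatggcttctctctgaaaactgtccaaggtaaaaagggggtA

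The estrogen receptor binds a palindrome whose arms read GGTCA and TGACC, and the full element has 3 bases of any kind between them. RefSeq promoter windows (build GRCh38.p14) held 30 of the 38 members, and the 250 bases before each start were searched on both strands, where each arm is the other's reverse complement. None of the 30 members held the full element, against 0.0513% of all 27305 genes with a window. An arm was present for 11 of the 30 members, or 36.7%, against 37.7% of all genes. Of the members with a window, it was present for 3 of 11 tested members whose A7 libraries both lay below both vehicle libraries and for 7 of 13 other tested members. For each of those 3, the first listed window with an arm is printed. Bases run 5′ to 3′ on the strand of the gene, with the arm in capitals. PGR had 3 windows (2 with an arm), PDZK1 had 2 (2 with an arm) and PRSS23 had 2 (1 with an arm). The printed window of PGR, chr11:101129078-101129327 on the minus strand, holds it 166 to 162 bases before the start. The printed window of PDZK1, chr1:145707401-145707650 on the minus strand, holds it 68 to 64 bases before the start. The printed window of PRSS23, chr11:86790821-86791070 on the plus strand, holds it 20 to 16 bases before the start. A match to these letters is a description and not a shown binding site.
PGR: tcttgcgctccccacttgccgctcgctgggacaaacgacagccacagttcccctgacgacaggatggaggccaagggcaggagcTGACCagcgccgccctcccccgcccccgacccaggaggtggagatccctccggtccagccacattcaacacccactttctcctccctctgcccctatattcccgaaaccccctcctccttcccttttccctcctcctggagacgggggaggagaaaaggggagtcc
PDZK1: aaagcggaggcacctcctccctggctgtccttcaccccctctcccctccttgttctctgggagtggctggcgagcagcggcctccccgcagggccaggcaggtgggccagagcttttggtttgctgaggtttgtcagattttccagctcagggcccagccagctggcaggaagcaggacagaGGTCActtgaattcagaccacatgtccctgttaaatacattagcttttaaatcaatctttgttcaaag
PRSS23: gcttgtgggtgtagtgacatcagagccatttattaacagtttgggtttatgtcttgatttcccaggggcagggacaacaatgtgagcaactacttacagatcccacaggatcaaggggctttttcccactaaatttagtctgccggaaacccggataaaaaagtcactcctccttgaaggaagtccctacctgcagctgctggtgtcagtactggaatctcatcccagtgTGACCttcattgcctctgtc

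The members were mostly lower after A7. The mean with A7 was lower for 22 of the 28 tested members and higher for 6, while 50.8% of all tested genes had a lower mean. In 15 members both A7 libraries lay below both vehicle libraries, which was the case for 18.6% of all tested genes, and in 0 members they lay above both, against 18.3%. PGR, among the 15, averaged 0.989 scaled FPKM with A7 and passed the minimum of 1 only with its vehicle libraries included. In 11 members the groups did not overlap and the mean was at least 1.5-fold lower with A7, against 3.12% of all tested genes. PGR is among these 11 too, as are both PDZK1 and its pseudogene PDZK1P1, which are not independent. The median log2 difference, A7 minus vehicle, was -0.34 over the 28 members and -0.0019 over all tested genes. Fewer cells making an RNA and less RNA per cell cannot be told apart in such bulk libraries.

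No single member passed the test over all genes. At a limma adjusted p under 0.05, 0 members were lower and 0 higher, and 0.0112% of all tested genes were lower and 0.0112% higher. The smallest adjusted p among members was 0.417, for PDZK1P1. At an unadjusted limma p under 0.05, 10 members were lower and 0 higher, while 3.55% of all tested genes were lower and 2.21% higher. Without vehicle replicate 1, 5 members were lower at that threshold, against 3.42% of all tested genes. The size of these counts depended on the scaling and on single libraries. With TPM in place of FPKM the median of all tested genes was 0.17. The mean was then lower for 16 members and higher for 12 (22.0% of all genes lower), 11 were lower without overlap (5.36% of all genes), and the members' median was -0.14, or -0.31 relative to all genes. The median was -0.22 without vehicle replicate 1 and -0.21 without A7 replicate 2.

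**Figure D1:**
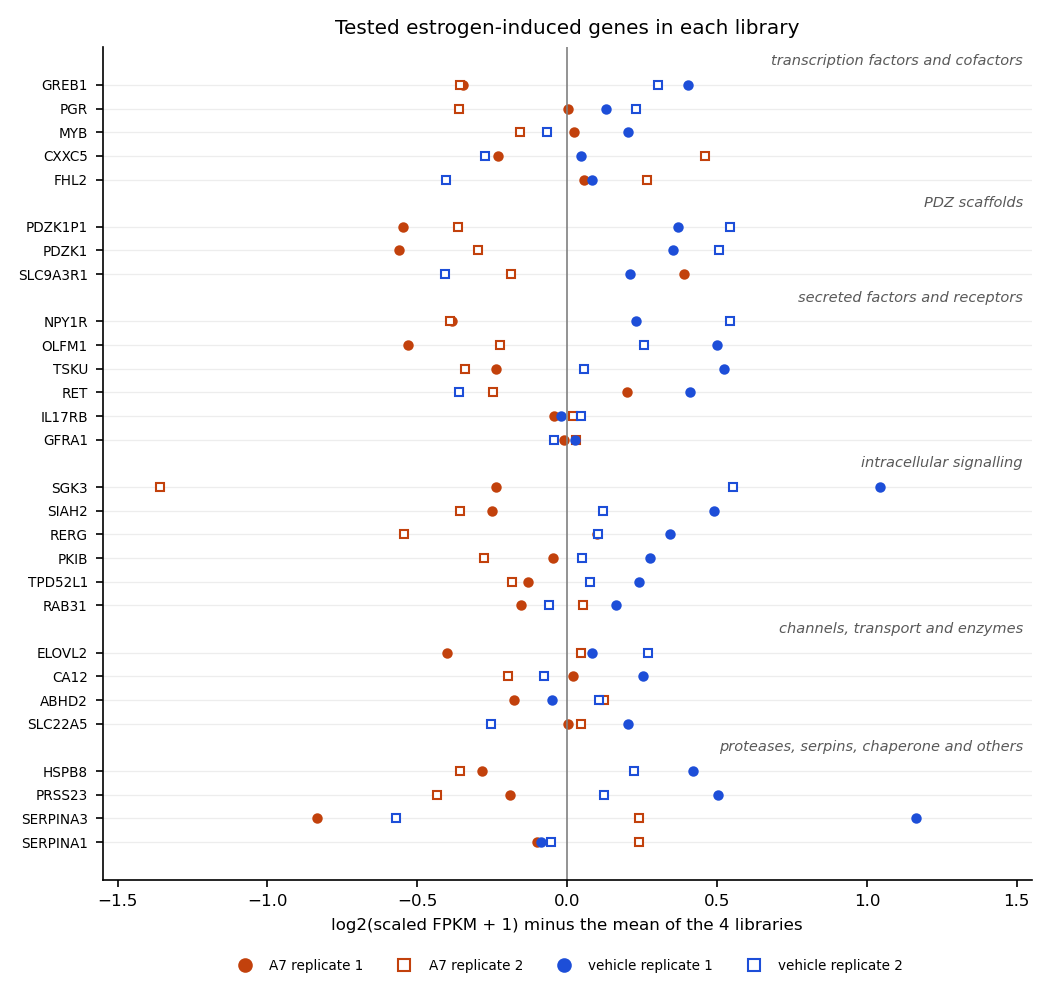
Each row is a tested member, grouped by role, and each point is 1 library. The x axis gives log2(scaled FPKM + 1) minus the mean of the 4 libraries, with A7 in orange and vehicle in blue, replicate 1 filled and replicate 2 open. In 15 of the 28 rows both orange points lie left of both blue points, and in 0 rows right of both.

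The 4 libraries did not stand at equal distance. Vehicle replicate 1 was the highest library for 16 of the 28 tested members and the lowest for 0. A7 replicate 2 was the lowest for 13 and the highest for 5. Around the mean of the 4 libraries, the members' median was -0.17 and -0.21 in the A7 libraries and 0.25 and 0.066 in the vehicle libraries. Both A7 libraries were thus below both vehicle libraries, and the vehicle replicates differed from each other more than the A7 replicates did.

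**Figure D2:**
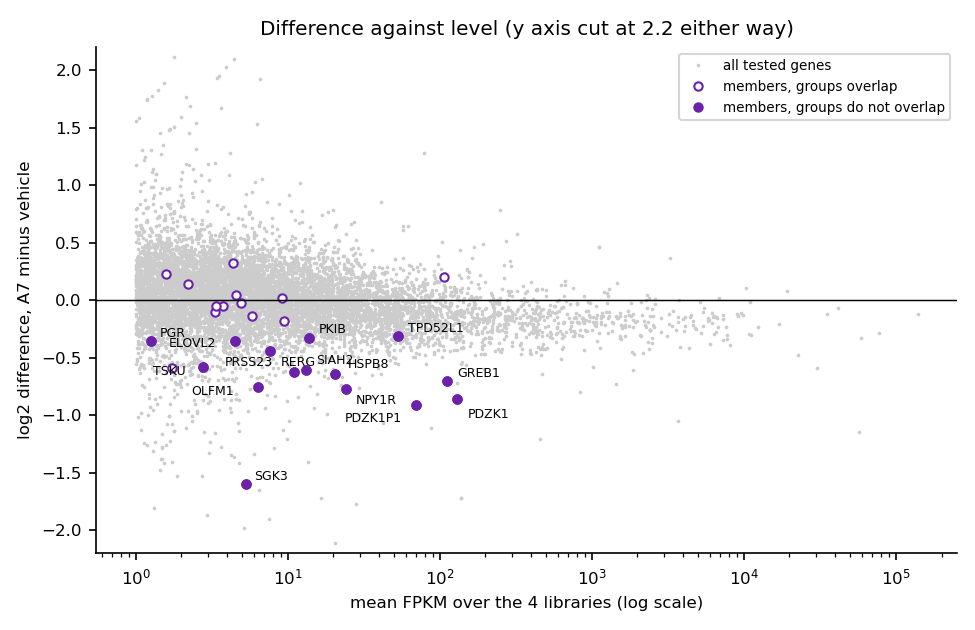
The x axis (log scale) gives the mean FPKM over the 4 libraries and the y axis the log2 difference, A7 minus vehicle. Grey points are all 8952 tested genes and purple circles the 28 tested members, filled where the groups do not overlap. The filled circles all lie below 0, between -0.32 for TPD52L1 and -1.60 for SGK3.

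Among the transcription factors and cofactors, the mean was lower with A7 for 3 of 5 tested genes (50.8% of all tested genes), and 2 were lower without overlap (18.6%). GREB1, a cofactor that binds the receptor and is among its most strongly induced targets, stood at 83.9 and 83.3 scaled FPKM in the A7 libraries and at 142 and 132 in the vehicle libraries. The A7 libraries differed by less than 1 scaled FPKM and lay far under both vehicle libraries. The mean was 1.64-fold lower with A7, and the log2 difference was -0.71 (SE 0.12, 95% interval -1.01 to -0.40, limma adjusted p = 0.439). PGR, the progesterone receptor and the clinical marker of a working estrogen receptor, was expressed at a low level, at 1.24 and 0.740 with A7 and at 1.45 and 1.62 with vehicle. Its groups did not overlap, but the log2 difference of -0.36 had an SE of 0.24 and an interval from -0.95 to 0.23. It was -0.18 without A7 replicate 2, -0.54 without A7 replicate 1 and -0.67 with a pseudocount of 0.01. The vehicle libraries of PGR lay closer together than the A7 libraries.

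The other transcription factors of the list showed no common direction. MYB, a proto-oncogene that estrogen induces in breast cancer cells, averaged 5.46 ± 0.58 with A7 and 6.12 ± 0.93 with vehicle (SD, n = 2 each). Its direction turned with TPM, where the median of all tested genes was 0.17. CXXC5, a DNA-binding zinc finger protein, stood at 1.14 and 2.45 with A7 and at 1.59 and 1.08 with vehicle. Its groups overlapped, and without A7 replicate 2 its difference was negative. FHL2, a LIM domain cofactor, stood at 4.50 and 5.35 with A7 and at 4.59 and 2.99 with vehicle. The mean was higher with A7, but 1 vehicle library lay between the A7 libraries. MYBL1, a relative of MYB, was under the FPKM minimum, at 0.548 and 0.396 with A7 and at 0.793 and 0.809 with vehicle, without overlap. HEY2, a repressor in Notch signalling, stood at 0.364 and 0.356 with A7 and at 0.824 and 0 with vehicle.

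Of the 3 members grouped as PDZ scaffolds, 2 were lower without overlap (18.6% of all tested genes). They are the near-identical pair of the scaffold gene PDZK1 and its pseudogene PDZK1P1. PDZK1, a scaffold that ties transporters to the cortex under the cell membrane, stood at 83.3 and 100.04 scaled FPKM with A7 and at 158 and 175 with vehicle, 1.82-fold lower on average (log2 difference -0.86, SE 0.15, limma adjusted p = 0.439). PDZK1P1 stood at 44.7 and 50.9 with A7 and at 85.5 and 96.5 with vehicle, 1.90-fold lower (log2 difference -0.91, SE 0.14, adjusted p = 0.417). Both genes had their lowest value in A7 replicate 1 and their highest in vehicle replicate 2. The pseudogene's FPKM was 53.7% and 50.9% of that of PDZK1 in the A7 libraries and 54.2% and 55.0% in the vehicle libraries. Since the sequences printed above are nearly the same, how the authors' counting split reads between the pair is uncertain, and the 2 genes are not independent evidence. Without PDZK1P1, a count added after the values were seen, 14 members were lower without overlap and the members' median was -0.33. Summed, the pair stood at 128 and 151 with A7 and at 243 and 272 with vehicle, with a log2 difference of -0.88 (SE 0.14, limma adjusted p = 0.435).

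SLC9A3R1, also named NHERF1, is a scaffold of the same kind that links membrane proteins to the actin cytoskeleton. It stood at 136 and 90.8 scaled FPKM with A7 and at 120 and 77.8 with vehicle. Replicate 1 was the higher library in both groups, the groups overlapped, and the log2 difference of 0.20 had an SE of 0.27. The difference was -0.09 without A7 replicate 1 and -0.11 without vehicle replicate 2.

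**Figure D3:**
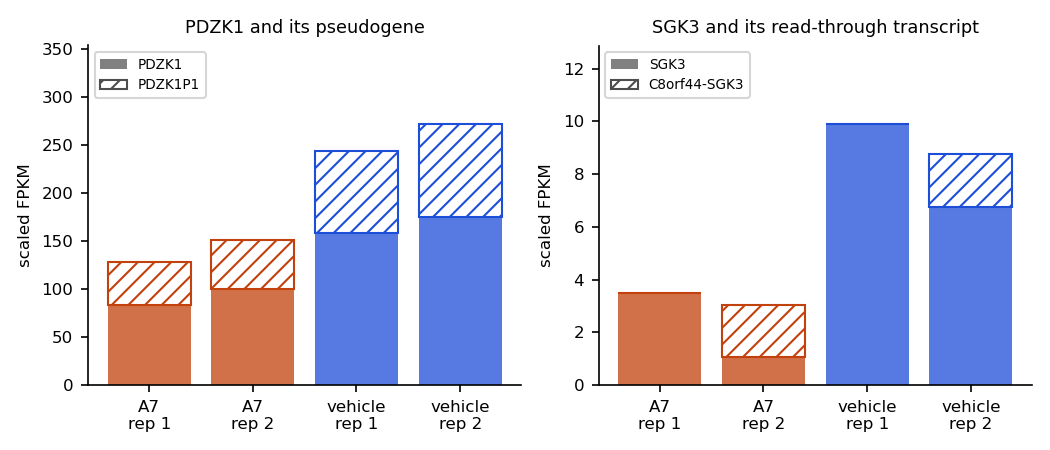
Stacked bars give the scaled FPKM of each library, A7 in orange and vehicle in blue, for PDZK1 with PDZK1P1 (left) and for SGK3 with the read-through transcript C8orf44-SGK3 (right). Both A7 bars of each panel are lower than both vehicle bars, and in the right panel the split between the 2 transcripts differs between replicates while the sum differs less.

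Of the 6 tested secreted factors and receptors 5 had a lower mean with A7 (50.8% of all tested genes), and 3 did so without overlap (18.6%). NPY1R, a receptor for neuropeptide Y that couples to G proteins, stood at 17.4 and 17.3 scaled FPKM with A7 and at 27.1 and 33.9 with vehicle, 1.76-fold lower (log2 difference -0.77, SE 0.16, limma adjusted p = 0.622). The A7 libraries nearly coincided, and the vehicle libraries differed more. NPY1R shares exon sequence with NPY5R on the other strand, which was listed at no more than 0.641 scaled FPKM in any library. OLFM1, a secreted olfactomedin glycoprotein, stood at 3.87 and 5.03 with A7 and at 8.95 and 7.40 with vehicle, 1.84-fold lower (log2 difference -0.76, SE 0.20, limma adjusted p = 0.806). TSKU, a secreted leucine-rich repeat protein, stood at 2.09 and 1.88 with A7 and at 4.23 and 2.79 with vehicle. Its mean was 1.77-fold lower, its log2 difference was -0.58 with all libraries and -0.35 without vehicle replicate 1, and its vehicle libraries differed from each other by more than vehicle replicate 2 differed from the A7 libraries.

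The receptor pair for the growth factor GDNF overlapped between groups. GFRA1, the coreceptor that binds the ligand, stood at 9.11 and 9.39 with A7 and at 9.37 and 8.87 with vehicle. Its log2 difference was 0.02, with an interval from -0.36 to 0.40. RET, the tyrosine kinase that it activates, stood at 4.30 and 2.89 with A7 and at 5.13 and 2.60 with vehicle, so that replicate 1 was higher in both groups. Its interval, from -0.82 to 0.72, was wide. The direction of RET turned without A7 replicate 2 or vehicle replicate 1, and with TPM, where the median of all tested genes was 0.17. IL17RB, an interleukin receptor subunit, averaged 4.82 ± 0.19 with A7 and 4.92 ± 0.19 with vehicle (SD, n = 2 each). Its direction turned with TPM, where the median of all tested genes was 0.17. The interval of its log2 difference ran from -0.44 to 0.39. A p above the threshold does not show that these 3 genes were alike in both groups, and their intervals still allow changes of the size given.

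The other members of this role were under the FPKM minimum. STC2, a secreted stanniocalcin, stood at 0.931 and 0.842 with A7 and at 0.593 and 0.860 with vehicle. CELSR2, a cadherin with many domains, stood at 0.975 and 0.580 with A7 and at 0.809 and 0.625 with vehicle. WISP2, a secreted protein of the CCN family, had 0.450 and 0.564 scaled FPKM with A7 and was listed at 0 with vehicle in each library. That rests on about 5 estimated fragments in all, and the A7 libraries were also the deeper ones.

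All 6 tested members of intracellular signalling had a lower mean with A7 (50.8% of all tested genes), and 5 did so without overlap (18.6%). With TPM, where the median of all tested genes was 0.17, RAB31 turned in direction. SGK3, a kinase of the SGK family that acts downstream of phosphoinositide signalling on endosomes, had the largest difference of the tested members with all 4 libraries. It stood at 3.49 and 1.06 scaled FPKM with A7 and at 9.91 and 6.76 with vehicle, 3.66-fold lower, with a log2 difference of -1.60 (SE 0.39, limma adjusted p = 0.773). Its replicates differed widely in both groups, and the log2 difference was -1.04 without A7 replicate 2 and -2.16 without A7 replicate 1. A read-through transcript that joins C8orf44 to SGK3, listed as C8orf44-SGK3, stood at nearly 0 and 1.98 with A7 and at nearly 0 and 2.02 with vehicle, present in replicate 2 of each group.

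Summing SGK3 and its read-through transcript brought the replicates together. The sum stood at 3.49 and 3.04 with A7 and at 9.91 and 8.78 with vehicle, 2.86-fold lower on average. The log2 difference was -1.28 (SE 0.17, 95% interval -1.71 to -0.85, limma adjusted p = 0.26). The SE was smaller than for SGK3 alone, and the adjusted p was below that of any member in any setting run, though still over the threshold. This sum was added after the values were seen. C8orf44 itself, the upstream partner, stood at 3.45 and 3.80 with A7 and at 3.13 and 2.47 with vehicle, a difference in the other direction. SGK1, a stress-induced relative of SGK3, was under the minimum, at 0.388 and 0.127 with A7 and at 0.175 and 0.710 with vehicle.

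SIAH2, a ubiquitin ligase of the RING type and an early estrogen target, stood at 10.5 and 9.73 scaled FPKM with A7 and at 18.3 and 13.9 with vehicle, 1.59-fold lower (log2 difference -0.61, SE 0.18, limma adjusted p = 0.806). Both A7 libraries lay well under the lower vehicle library. RERG, a Ras-like GTPase that slows growth, stood at 8.05 and 4.79 with A7 and at 9.70 and 8.06 with vehicle. A7 replicate 1 and vehicle replicate 2 were nearly equal, so that its lack of overlap rests on a very small gap. Its log2 difference was -0.44 with all libraries, -0.12 without A7 replicate 2 and -0.77 without A7 replicate 1. PKIB, an inhibitor of protein kinase A, stood at 13.1 and 11.02 with A7 and at 16.6 and 14.1 with vehicle, 1.27-fold lower, with a log2 difference of -0.33 that was -0.21 without A7 replicate 2 or without vehicle replicate 1. TPD52L1, a small coiled-coil protein of the tumour protein D52 family, stood at 47.8 and 46.0 with A7 and at 62.1 and 55.3 with vehicle, 1.25-fold lower.

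TPD52L1 overlaps HDDC2 on the other strand, and the library protocol in the labels mentions no strand marking. HDDC2 stood at 51.0 and 52.7 scaled FPKM with A7 and at 61.2 and 71.3 with vehicle, so reads of the 2 genes, which were lower together, cannot be told apart where they overlap. RAB31, a GTPase of vesicle traffic, averaged 3.13 ± 0.42 with A7 and 3.44 ± 0.48 with vehicle (SD, n = 2 each), with overlap. ADCY9, an adenylate cyclase, was under the minimum, at 0.328 and 0.139 with A7 and at 0.732 and 0.270 with vehicle.

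Of 4 tested channels, transporters and enzymes 3 had a lower mean with A7 (50.8% of all tested genes), 1 did so without overlap (18.6%), and the median log2 difference was -0.12. ELOVL2, which lengthens polyunsaturated fatty acids, stood at 3.09 and 4.57 scaled FPKM with A7 and at 4.72 and 5.51 with vehicle, 1.34-fold lower (log2 difference -0.35, SE 0.22). It was -0.13 without A7 replicate 1 and -0.58 without A7 replicate 2. A7 replicate 2 was close to vehicle replicate 1, and the A7 libraries lay farther apart than the group means. CA12, a carbonic anhydrase on the cell surface, averaged 8.70 ± 1.02 with A7 and 10.01 ± 1.77 with vehicle (SD, n = 2 each). ABHD2, a lipid hydrolase, averaged 3.30 ± 0.63 with A7 and 3.45 ± 0.34 with vehicle (SD, n = 2 each). Both directions turned with TPM, where the median of all tested genes was 0.17. SLC22A5, the carnitine transporter, stood at 4.52 and 4.69 with A7 and at 5.35 and 3.62 with vehicle. Both of its A7 libraries lay between the vehicle libraries. KCNK5, a potassium channel, was listed at 0.0735 and 0 with A7 and at 0.135 and 0 with vehicle, about 2 estimated fragments in all.

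Of the 4 remaining tested members, HSPB8 and PRSS23 were lower without overlap (18.6% of all tested genes). HSPB8, a small heat shock protein that works in chaperone-assisted autophagy, stood at 16.1 and 15.2 scaled FPKM with A7 and at 26.8 and 23.3 with vehicle, 1.60-fold lower (log2 difference -0.64, SE 0.15, limma adjusted p = 0.734). PRSS23, a secreted serine protease, stood at 9.16 and 7.57 with A7 and at 15.4 and 11.6 with vehicle, 1.62-fold lower (log2 difference -0.63, SE 0.20, limma adjusted p = 0.806). In both genes the A7 libraries lay closer together than the vehicle libraries. PRSS23 overlaps FZD4 on the other strand, which stood at 0.992 and 0.819 with A7 and at 0.411 and 0.469 with vehicle, the other direction at a far lower level.

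The serine protease inhibitors of this role overlapped between groups. SERPINA3, or antichymotrypsin, stood at 0.309 and 1.76 with A7 and at 4.22 and 0.570 with vehicle, so that 1 library of each group was high. Without vehicle replicate 1 its log2 difference was 0.27, against -0.59 with all libraries. SERPINA1, or antitrypsin, stood at 1.98 and 2.76 with A7 and at 2.00 and 2.07 with vehicle, with overlap, and was negative without A7 replicate 2.

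SUSD3, a sushi domain protein of the cell surface that estrogen induces, was just under the FPKM minimum. It stood at 0.268 and 0 scaled FPKM with A7 and at 2.50 and 1.02 with vehicle, without overlap, on about 9 estimated fragments in all. The A7 libraries were the deeper ones. KRT13, an epithelial keratin, went the other way, at 1.45 and 0.675 with A7 and at 0 and 0.338 with vehicle, on about 13 estimated fragments. Of the 10 members under the minimum, 2 were lower without overlap (MYBL1 and SUSD3), 2 were higher without overlap (KRT13 and WISP2) and 6 overlapped. Of all genes above 0 and under the minimum, 9.16% were lower and 17.2% higher without overlap.

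**Figure D4:**
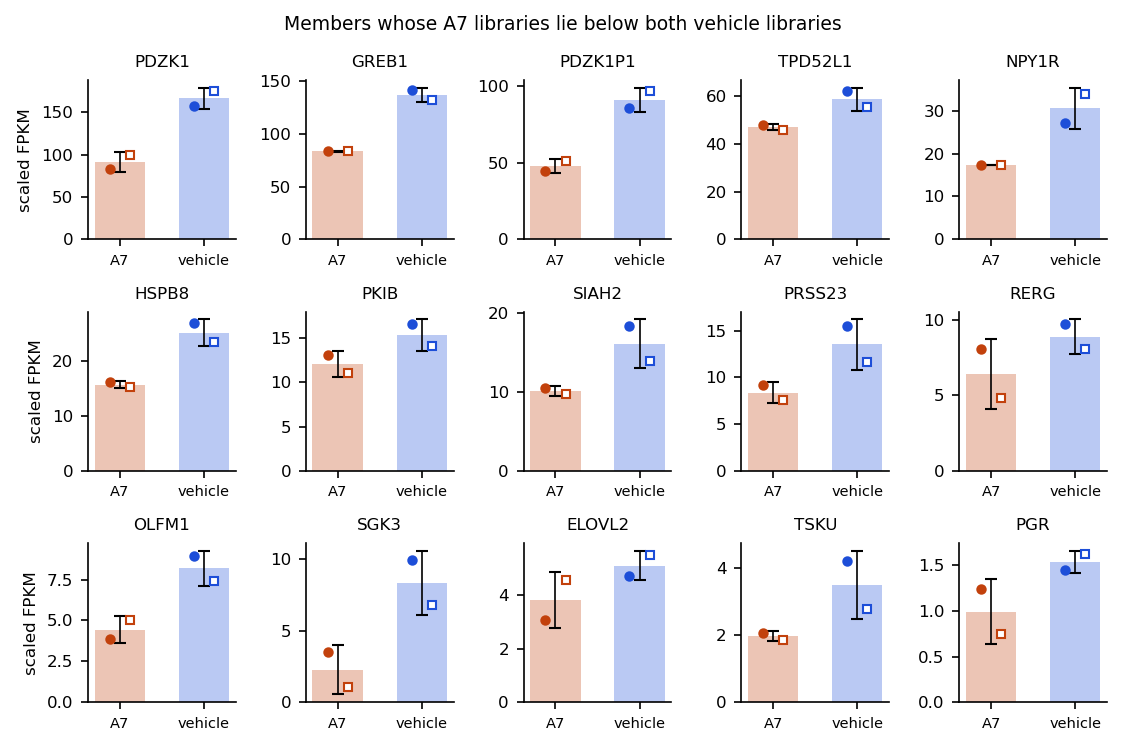
Each panel is 1 of the 15 tested members whose groups do not overlap, ordered by mean FPKM, with the scaled FPKM on the y axis. Bars are means, error bars the SD over 2 libraries, circles replicate 1 and squares replicate 2. The gap between the nearest A7 and vehicle libraries exceeds the range within either group for genes such as GREB1, HSPB8, PDZK1 and PDZK1P1, and RERG and ELOVL2 have A7 and vehicle libraries that nearly touch.

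Other genes of the estrogen response were described from 3 lists. These lists, too, were chosen with earlier results of these data known, so their counts and medians are a description and not independent evidence. Of 33 other tested estrogen-induced genes, 24 had a lower mean with A7 (50.8% of all tested genes). Without overlap, 9 were lower (18.6%) and 3 higher (18.3%). EGR3, among the 9, averaged 0.866 scaled FPKM with A7, and MAPT, among the 3, averaged 0.976 with vehicle. Each passed the minimum of 1 only through its higher group. The median log2 difference of the list was -0.14, which turned to 0.036 with TPM, where the median of all tested genes was 0.17. By level the leading genes were TFF1, KRT19, XBP1 and SLC39A6. TFF1, a secreted trefoil peptide, stood at 35311 and 35079 scaled FPKM with A7 and at 75730 and 79930 with vehicle, 2.21-fold lower (limma adjusted p = 0.0857). XBP1, a transcription factor of secretory cells, stood at 180 and 167 with A7 and at 254 and 187 with vehicle. SLC39A6, a zinc transporter long known as an estrogen target, stood at 97.9 and 96.5 with A7 and at 122 and 121 with vehicle. The keratin KRT19 overlapped between groups, at 347 and 236 with A7 and at 429 and 327 with vehicle.

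Genes known to be held down by estrogen had mostly higher means with A7. Of 16 tested genes on that list 12 had a higher mean with A7 and 4 a lower one, while 50.8% of all tested genes had a lower mean. In 11 genes both A7 libraries lay above both vehicle libraries and in 2 below, against 18.3% and 18.6% of all tested genes. ERBB2, among the 11, averaged 0.959 scaled FPKM with vehicle and passed the minimum of 1 only with its A7 libraries included. The median log2 difference of the list was 0.39, and it was 0.57 with TPM, where the median of all tested genes was 0.17. By level the leading genes were TXNIP, YPEL5, HES1 and IFIT1. YPEL5 stood at 74.0 and 90.6 scaled FPKM with A7 and at 63.3 and 67.7 with vehicle. HES1, a repressor in Notch signalling, stood at 79.2 and 65.4 with A7 and at 56.3 and 63.1 with vehicle. TXNIP, which binds thioredoxin, stood at 72.5 and 80.05 with A7 and at 84.5 and 70.1 with vehicle, with overlap, and IFIT1, an interferon-induced gene, at 39.8 and 45.7 with A7 and at 47.2 and 48.9 with vehicle. At a limma adjusted p under 0.05, 0 genes of this list passed, and at an unadjusted p under 0.05, 3 were higher and 0 lower, against 2.21% and 3.55% of all tested genes.

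**Figure D5:**
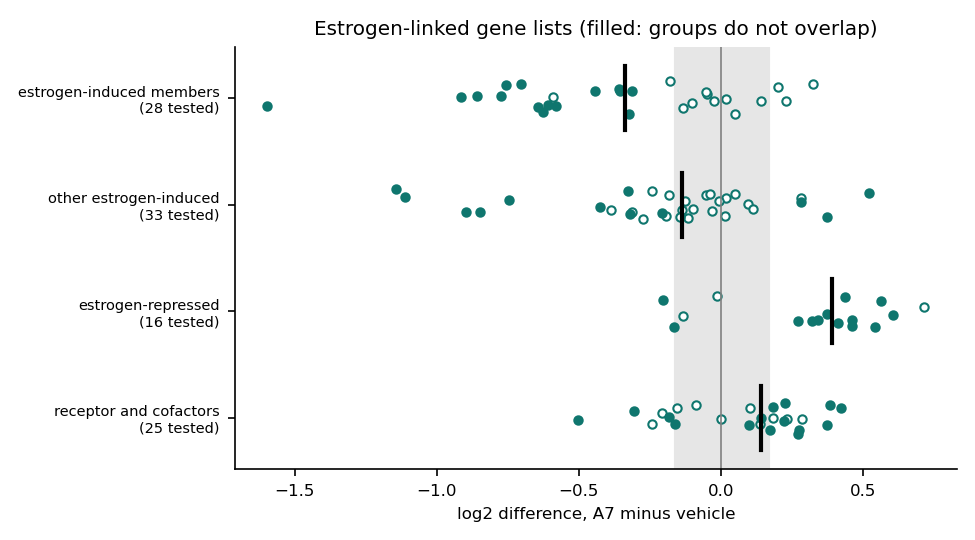
Each point is a tested gene, the x axis gives the log2 difference, A7 minus vehicle, and filled points are genes whose groups do not overlap. Black lines are the medians of the lists, and the grey band holds the middle of all tested genes, between quartiles of -0.16 and 0.17. The medians of the members and of the estrogen-repressed list, -0.34 and 0.39, lie outside the band on opposite sides. The band shows the spread of single genes and is no test of a median. All lists were chosen with earlier results of these data known.

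The mean RNA level of the receptor itself was not lower with A7. The interval of its log2 difference, from -0.24 to 0.60, allows a change in either direction. Receptor protein was not measured in these libraries. ESR1, which encodes estrogen receptor alpha, stood at 5.36 and 5.20 scaled FPKM with A7 and at 4.28 and 4.79 with vehicle, both A7 libraries above both vehicle libraries (log2 difference 0.18, SE 0.17, limma adjusted p = 0.861). Of 25 tested genes for the receptor, its partner factors and its coregulators, the mean with A7 was higher for 16 and lower for 9. Over all tested genes, 50.8% had a lower mean. Without overlap, 11 of the 25 were higher and 4 lower, against 18.3% and 18.6% of all tested genes. NCOA2, among the 11, averaged 0.958 scaled FPKM with vehicle and passed the minimum of 1 only with its A7 libraries included. The median of the list was 0.14, and it was -0.0093 without vehicle replicate 2. GATA3, a luminal transcription factor, stood at 178 and 151 with A7 and at 139 and 132 with vehicle, and the coactivator NCOA3 at 60.6 and 68.6 with A7 and at 47.1 and 52.4 with vehicle. The deacetylase HDAC1 overlapped, at 41.9 and 53.0 with A7 and at 48.5 and 56.9 with vehicle, and the factor TFAP2C stood at 42.8 and 36.6 with A7 and at 45.9 and 52.6 with vehicle. None of these passed the test over all genes.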

How the data were processed

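Per the file headers, each deposited table pairs gene symbols with the authors' FPKM for 1 library. The submitters' processing notes name CASAVA 1.8.2, TopHat, Cufflinks 2.2.1 and build GRCh37, and how multiply mapping reads were handled is not given in the sources used here. Of 23619 lines per table, 14 had a number in the symbol column (together no more than 0.00539% of the FPKM of any library) and were dropped. Because FPKM were deposited, a count model was not used.

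Each library was divided by a median-ratio factor (0.990 and 1.02 for A7, 1.002 and 1.01 for vehicle). Genes at a mean FPKM of at least 1 were fitted with limma 3.58.1 in R 4.3.3 using log2(scaled FPKM + 1), a trended eBayes prior, two-sided tests, with Benjamini-Hochberg adjustment over all genes and a threshold of 0.05. This scale understates differences of low genes. The fit had 2 residual and 3.89 prior degrees of freedom and was tested on simulated data.

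The members and lists were chosen with earlier results of these data known. Values in every library are given for members whose groups do not overlap or whose mean was higher with A7, and of each list the 4 genes of highest mean FPKM and ESR1 are named. The sum of SGK3 with its read-through transcript and the counts without PDZK1P1 were added after the values were seen. Depth was estimated from the steps of low FPKM values, with GENCODE 29 transcript lengths. Fragments per gene use the median length of its transcripts and are rough. PDZK1 was compared with PDZK1P1 by blastn 2.17.0. Coordinates come from RefSeq on GRCh38.p14 and were not joined with the FPKM tables, which have none. Alternatives were other scalings, pseudocounts of 0.1 and 0.01, other filters, no trend, the replicate number as a block, and each library left out.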

Additional observations from a re-analysis of the deposited data

How the results depend on the processing

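No member passed at a limma adjusted p under 0.05 under any of the alternatives run. Over all genes, the 1 higher and 1 lower became 0 higher and 0 lower with no filter, 0 higher without the variance trend, 0 lower with a pseudocount of 0.1 or 0.01, 2 lower with TPM or quantile normalization and 3 lower with a mean FPKM of 5 or more. Leaving out each library gave 1 to 10 higher and 0 to 7 lower genes. The replicate numbers are not said to mark a shared culture, and deviations of same-numbered libraries correlated at 0.091 across genes. With the replicate number as a block, 0 genes were higher and 0 lower, and 12 members were lower at an unadjusted p under 0.05 (6.41% of all genes).

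The members' median of -0.34 was negative under every alternative, at -0.14 with TPM, -0.23 with no filter (38 members), -0.62 with a mean FPKM of 5 or more (14 of 16 lower, against 59.2% of all genes; the A7 means of OLFM1 and SGK3 were under that level) and -0.42 to -0.21 with 1 library left out. Members with a lower mean then numbered 18 to 24, and those lower without overlap 16 to 21, while the share of all genes lower without overlap was 32.5% to 36.9%, since fewer libraries overlap less. The median of the estrogen-repressed list was 0.57 with TPM (0.17 for all genes) and 0.33 with no filter. It was 0.45 and 0.46 with pseudocounts of 0.1 and 0.01, and 0.31 to 0.37 with 1 library left out. On that list 1 gene had a lower mean with TPM (22.0% of all genes), and 2 to 5 did with 1 library left out (49.7% to 50.9%). With TPM the medians were 0.036 for other estrogen-induced genes (15 lower) and 0.32 for the receptor and cofactors (5 lower). Over all genes the median was then 0.17, and 22.0% were lower. The receptor and cofactor median ranged over -0.0093 to 0.20 with 1 library left out. With a mean FPKM of 5 or more, fewer of the other estrogen-induced genes were tested than in the main fit, and 15 of those had a lower mean. That count is therefore not a share to set against the 59.2% of all genes. The median of the list was then -0.24, and that of all genes -0.048.

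Directions turned with TPM for ABHD2 (0.11), CA12 (0.023), IL17RB (0.16), MYB (0.052), RAB31 (0.064) and RET (0.11). All of these values lay under the median of all tested genes with TPM (0.17). With 1 library left out the log2 difference ranged over -0.20 to 0.097 for ABHD2, -0.12 to 0.57 for CXXC5, -0.017 to 0.054 for GFRA1, -0.058 to 0.0095 for IL17RB, -0.21 to 0.0088 for RAB31, -0.43 to 0.34 for RET, -0.029 to 0.31 for SERPINA1, -1.46 to 0.27 for SERPINA3, -0.18 to 0.28 for SLC22A5 and -0.11 to 0.51 for SLC9A3R1. The 15 members without overlap were negative in every setting run, and with TPM ELOVL2 (-0.16), PGR (-0.21), RERG (-0.24), PKIB (-0.11), TPD52L1 (-0.094), HSPB8 (-0.42), PRSS23 (-0.41) and SIAH2 (-0.40) were smaller by over 1.5 times. With TPM all values move up by construction, by about the shift of the median of all genes (0.17). The cause of the other changes was not tested. Low depth limits all members under the FPKM minimum. It also limits tested members such as CXXC5, SERPINA3, ABHD2, PGR and SERPINA1, at about 9, 27, 29, 39 and 39 estimated fragments in all.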
